A study of Mus musculus with 3 samples.

Results

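The oxidative phosphorylation genes described here are the 94 features, of 32287 in the matrix, whose symbols name subunits of respiratory chain complexes I, III and IV and of the ATP synthase (complex V). They were chosen by symbol alone. The nuclear genome encodes 81 of them, with symbols beginning with Ndufa, Ndufb, Ndufc, Ndufs, Ndufv, Uqcr, Cox4 to Cox8 or Atp5, and the mitochondrial genome encodes 13, with symbols beginning with mt-Nd, mt-Cytb, mt-Co or mt-Atp. Symbols beginning with Ndufaf (complex I assembly factors) and any with the suffix -ps were left out. No measured value entered the choice.

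The respiratory chain passes electrons from NADH and ubiquinol to oxygen and pumps protons across the inner mitochondrial membrane, and the ATP synthase uses that gradient to make ATP. Mitochondrial DNA encodes core membrane subunits of complexes I, III, IV and V, and all other subunits are transcribed in the nucleus, translated in the cytosol and imported. Each of these complexes therefore needs transcripts from both genomes.

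The cells were 1 mouse culture called PC. It came from esophageal organoids of mice with a floxed Trp53 gene, in which an adenovirus carrying Cre and EGFP removed Trp53 and CRISPR/Cas9 then targeted Cdkn2a. The dissociated cells were grown in DMEM with serum, first with the kinase inhibitor Y-27632 and later without it. They carried Cas9 constitutively, received a barcode library by Lipofectamine 3000, were expanded for 3 passages and were sorted as live RFP-positive cells, with about 1000000 sorted and 20000 recovered. A gene expression, a barcode and a scar library were made from them, and the deposited matrix does not name the library behind its reads. No control without these alterations was analysed here, nor was the PCN culture, in which Notch1 was also targeted. All values come from 1 sample: cells are not replicates, no test between conditions was possible, and all intervals are exact 95% intervals (Poisson for levels, Clopper-Pearson for shares) that cover counting error only.

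Of 18116 barcodes with 47720034 UMIs (unique molecular identifiers, each standing for 1 captured transcript), 14925 were kept, with 500 genes or more, 1000 UMIs or more and no more than 20% mt- UMIs. They held 45443280 UMIs, with a median of 2955 UMIs and 1499 genes per cell. Krt5, a keratin of basal squamous cells, was at 628 UMIs per 1000000 UMIs (CPM). Of the smooth and striated muscle genes, Des and Myh2 had 1 UMI each in all, Ckm and Actn2 2 each, Tnnt3 3 and Myh11 9. Acta1 had 51 UMIs (1.12 CPM) and Cnn1 173 (3.81 CPM). Trp53 was at 46.8 CPM and Cdkn2a at 639.6 CPM, and counts from transcript 3′ ends do not show whether either gene is inactivated. Doublets were not removed, because the caller marked 1 of 14925 cells. UMIs from 3′ ends are not divided by gene length, and reads shared with pseudogenes or nuclear copies of mitochondrial DNA could not be told apart.

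A mitochondrial overlap and 4 nuclear promoters show how the genes of both genomes are laid out. mt-Atp8 and mt-Atp6, subunits of the ATP synthase, overlap by 43 bases at chrM:7927-7969 (GRCm38, plus strand), and mt-Nd4l and mt-Nd4 overlap by 7 bases. Both pairs are known to be translated from shared transcripts, so UMIs under their symbols do not count separate RNAs. The mt-Atp8 sequence (GENCODE M21, chrM:7766-7969, plus strand) is shown 5′ to 3′ with the overlap in capitals.
mt-Atp8: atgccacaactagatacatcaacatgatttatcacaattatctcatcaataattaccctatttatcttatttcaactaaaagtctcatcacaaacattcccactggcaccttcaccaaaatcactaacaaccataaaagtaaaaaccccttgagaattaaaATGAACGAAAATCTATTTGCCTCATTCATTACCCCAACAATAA

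RefSeq promoter windows on GRCm38.p6, from 250 bases before to 50 bases after the annotated start, matched 66 of the 81 nuclear genes by symbol or synonym. Each was searched on both strands for exact cores of 3 factors known from respiratory genes: NRF1 (GCGCATGC), ETS factors such as GABP (ACTTCCGG) and YY1 (AAGATGGC). No core contains another. NRF1's core was in 9 of the 66 windows (13.6%), against 3.05% of 27025 genes. The ETS core was in 5 (7.58%), against 4.31%, and YY1's core in 10 (15.2%), against 3.19%. At least 1 core was in 23 windows (34.8%), against 9.91%. A match describes letters and not a bound site. The NRF1 core was shortened after a first search of the promoters had been seen, so its share is not an independent result. The 27025 genes were not matched to the nuclear genes for level or base content.

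The 4 windows shown belong to the leading nuclear genes of complexes V, III and IV, which hold a core (in capitals), and to Ndufa4. Ndufa4 leads complex I, in which its symbol places it, and its window holds none of the exact cores. The positions of the 4 windows, all on the minus strand, are chr15:102670998-102671297 (Atp5g2), chr4:116075021-116075320 (Uqcrh), chr19:7217567-7217866 (Cox8a) and chr6:11907401-11907700 (Ndufa4). Capitals mark the NRF1 core in Atp5g2, present on both strands with an overlap, where the RefSeq start lies within the longer GENCODE span of the gene, and the ETS core in Uqcrh (1 copy) and Cox8a (2 copies).
Atp5g2: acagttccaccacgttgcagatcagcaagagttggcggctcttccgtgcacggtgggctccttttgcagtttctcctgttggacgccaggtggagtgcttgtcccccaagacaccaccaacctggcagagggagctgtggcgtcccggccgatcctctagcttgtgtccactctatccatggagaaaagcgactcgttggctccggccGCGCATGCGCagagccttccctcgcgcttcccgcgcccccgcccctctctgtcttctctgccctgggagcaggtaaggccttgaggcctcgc
Uqcrh: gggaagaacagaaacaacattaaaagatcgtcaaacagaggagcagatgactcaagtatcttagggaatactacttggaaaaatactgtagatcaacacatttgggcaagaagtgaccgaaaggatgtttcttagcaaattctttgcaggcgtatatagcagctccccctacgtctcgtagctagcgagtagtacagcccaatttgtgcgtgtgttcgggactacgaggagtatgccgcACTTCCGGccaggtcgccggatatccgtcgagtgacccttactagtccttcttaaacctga
Cox8a: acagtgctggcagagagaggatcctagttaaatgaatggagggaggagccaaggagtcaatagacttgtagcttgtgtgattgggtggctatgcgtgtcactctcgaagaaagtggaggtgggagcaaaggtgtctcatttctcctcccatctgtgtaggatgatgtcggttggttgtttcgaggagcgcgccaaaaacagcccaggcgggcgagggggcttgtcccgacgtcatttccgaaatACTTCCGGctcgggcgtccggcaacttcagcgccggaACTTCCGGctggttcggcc
Ndufa4: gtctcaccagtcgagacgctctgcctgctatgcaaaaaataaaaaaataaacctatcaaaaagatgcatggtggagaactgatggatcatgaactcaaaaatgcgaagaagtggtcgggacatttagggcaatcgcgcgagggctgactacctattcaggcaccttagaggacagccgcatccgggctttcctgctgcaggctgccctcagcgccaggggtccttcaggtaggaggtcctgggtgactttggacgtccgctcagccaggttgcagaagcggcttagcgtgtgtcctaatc

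The 13 mitochondrial-encoded genes held more UMIs than the 81 nuclear ones. They took 1377229 UMIs, or 3.03% of all (interval 3.03 to 3.04%), and the nuclear genes took 841361, or 1.85% (1.85 to 1.86%), a ratio of 1.64. These 13 genes are also every mt- feature of the matrix, so the limit of 20% mt- UMIs caps their share directly. Over the 14811 cells with a nuclear UMI the ratio had a median of 1.5045, with 5th and 95th percentiles of 0.706 and 5. Among nuclear UMIs, complex I (38 genes) took 35.8%, complex III (8 genes) 8.45%, complex IV (18 genes) 29.8% and complex V (17 genes) 25.9%, with Ndufa4 counted in complex I by its symbol. Its product has since been assigned to complex IV, and with it moved there complex I took 31.4% and complex IV 34.3%, so the order of these complexes depends on that 1 gene. Among mitochondrial UMIs, complex I (7 genes) took 24.5%, complex III (mt-Cytb alone) 11.7%, complex IV (3 genes) 41.1% and complex V (2 genes) 22.7%.

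**Figure D1:**
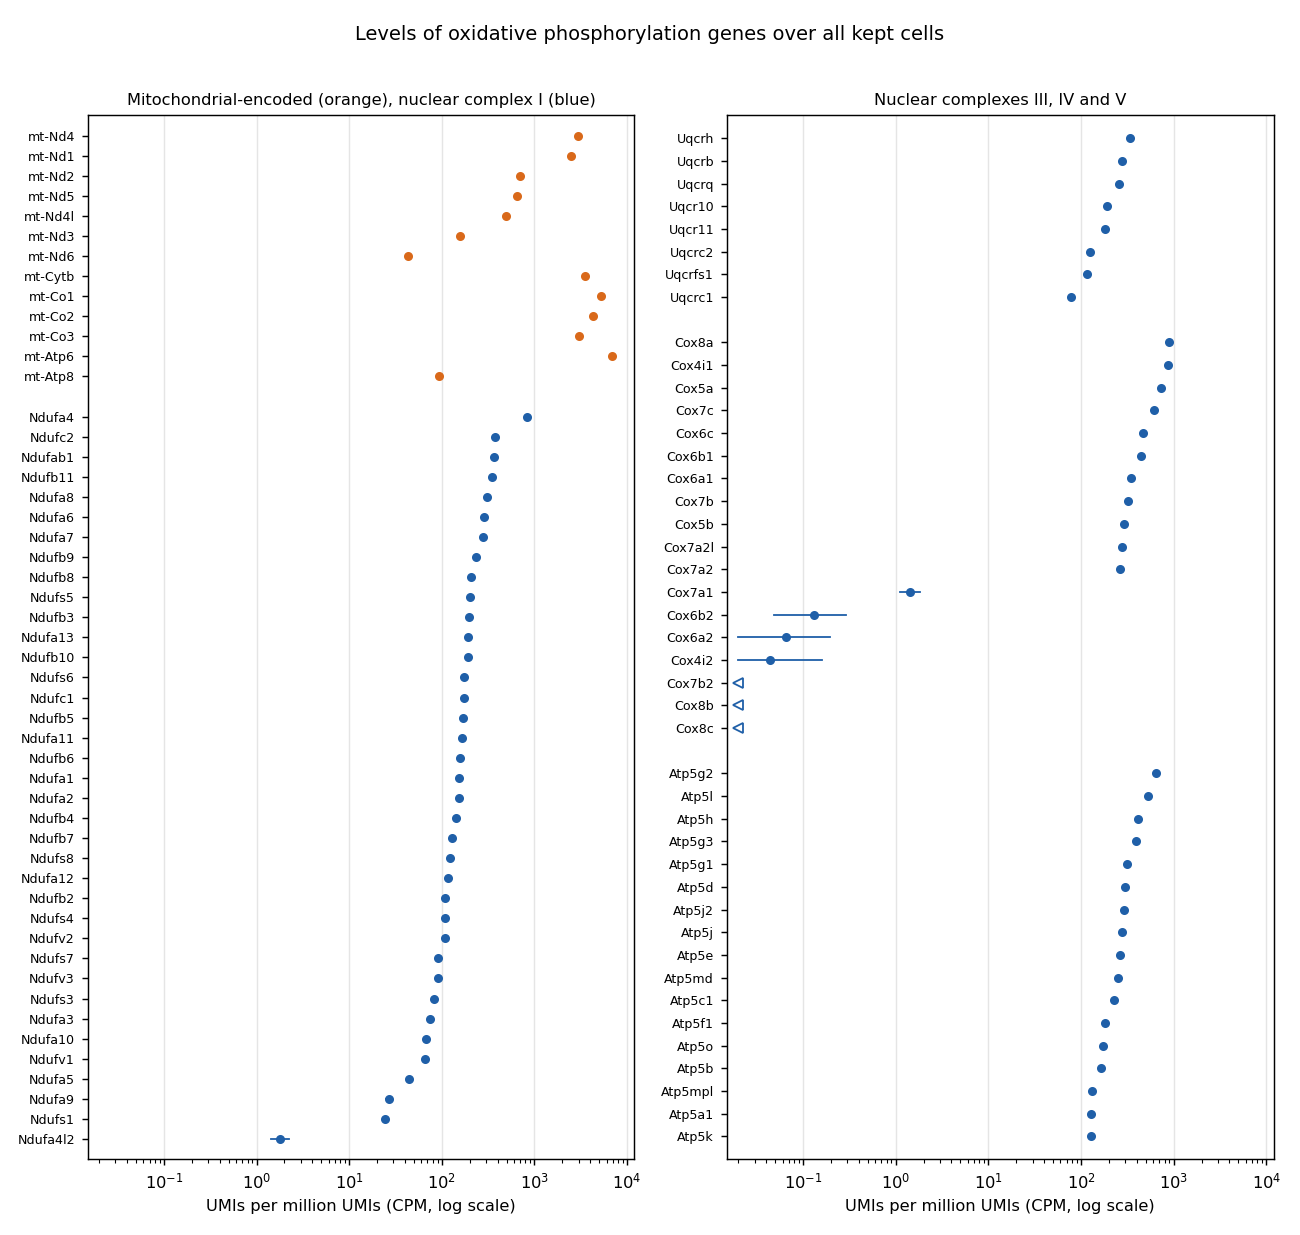
Level of 93 of the 94 genes over all 14925 kept cells, in UMIs per 1000000 UMIs (CPM) on a log axis, with exact 95% Poisson intervals where they are wider than the point; orange points are mitochondrial-encoded genes, blue points are nuclear genes and open triangles at the left edge are genes with 0 UMIs. Most nuclear genes lie between 24.5 and 891 CPM, and 8 genes (Ndufa4l2 and 7 complex IV genes) lie far lower.

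Of the 81 nuclear genes, 78 had a UMI and 73 reached 10 CPM. In complex I, which oxidises NADH, Ndufa4 led at 824 CPM. Next came Ndufc2, a membrane-arm subunit, at 377 CPM and Ndufab1, a mitochondrial acyl carrier protein, at 362 CPM. Ndufs1, the largest iron-sulphur subunit, was at 24.5 CPM, the lowest of complex I apart from Ndufa4l2. In complex III, which passes electrons from ubiquinol to cytochrome c, the small subunits Uqcrh (337 CPM), Uqcrb (279 CPM) and Uqcrq (259 CPM) led. The core subunit Uqcrc1 was lowest, at 78.6 CPM.

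Complex IV reduces oxygen, and its nuclear genes held both the highest level and the rarest paralogs. Cox8a was at 891 CPM, Cox4i1 at 871 CPM and Cox5a at 735 CPM. The paralogs known from heart, skeletal muscle, lung or testis were rare beside their common forms. Cox4i2 had 2 UMIs, against 39594 for Cox4i1. Cox6a2 had 3 UMIs, against 15887 for Cox6a1, and Cox6b2 had 6, against 20376 for Cox6b1. Cox7a1 had 65 UMIs (1.43 CPM), each in a separate cell, against 12075 for Cox7a2 and 12474 for Cox7a2l, a factor that joins complexes III and IV. Cox7b2, Cox8b and Cox8c had 0 UMIs, which allows up to 0.066 CPM each (3 UMIs), against 14456 UMIs for Cox7b. Ndufa4l2, a paralog of Ndufa4 known as a hypoxia target, had 81 UMIs in 41 cells (1.78 CPM). Of these, 38 UMIs lay in 18 cells of cluster 6 and 21 in 9 cells of cluster 2, the clusters being defined further on.

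In the ATP synthase, Atp5g2 led at 651 CPM. It encodes the same ring subunit c as Atp5g3 (388 CPM) and Atp5g1 (311 CPM), and all 3 copies were detected. Atp5l (subunit g) was at 523 CPM and Atp5h (subunit d) at 413 CPM. Atp5k (subunit e) was lowest, at 128 CPM, close to Atp5a1 (129 CPM), which encodes the catalytic ring's alpha subunit. None of the 17 ATP synthase genes was thus under 100 CPM. In complex IV only the rare tissue paralogs were, and in complex I common genes such as Ndufs1 were as well.

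The mitochondrial-encoded genes spanned a wide range although they are transcribed from 1 small genome. mt-Atp6 was highest at 6787 CPM, followed by the complex IV core genes mt-Co1 (5162 CPM) and mt-Co2 (4300 CPM), by cytochrome b, mt-Cytb (3540 CPM), and by mt-Co3 (2996 CPM). Of the complex I genes, mt-Nd4 was at 2918 CPM, mt-Nd1 at 2485 CPM, mt-Nd2 at 694 CPM, mt-Nd5 at 642 CPM, mt-Nd4l at 488 CPM and mt-Nd3 at 158 CPM. mt-Atp8, which shares its transcript with mt-Atp6, was at 94.1 CPM. mt-Nd6, the only one of the 13 on the opposite strand, was lowest at 43.4 CPM and overlaps mt-Nd5 there. In the plot of levels by gene, 7 of the 13 lie above every nuclear gene, and the other 6 lie within the range of the common nuclear genes.

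To compare both groups of genes cell by cell, each cell was thinned at random to 1500 UMIs, which 13281 cells reached and 1644 did not. Nuclear genes were taken per UMI that was not mt-, GFP or Scar, so that more mitochondrial UMIs do not by themselves lower them. A thinned cell had a median of 28 nuclear UMIs (5th to 95th percentile 16 to 40) and of 41 mitochondrial UMIs (21 to 82). Spearman's correlation between both shares was -0.0959 over these cells, which share 1 matrix and 1 depth, and -0.0712 over the 13150 cells outside clusters 7 and 9, 2 clusters low in nuclear genes described further on. Within the clusters it lay between -0.152 and 0.0852. The nuclear share went with the cytosolic ribosomal protein genes instead, with a Spearman's correlation of 0.275 over all thinned cells and 0.253 outside clusters 7 and 9. These weak correlations describe 1 culture and leave out most of cluster 7, since 122 of its 652 cells reached 1500 UMIs. Between both shares, the correlation without thinning is given with the other settings at the end.

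**Figure D2:**
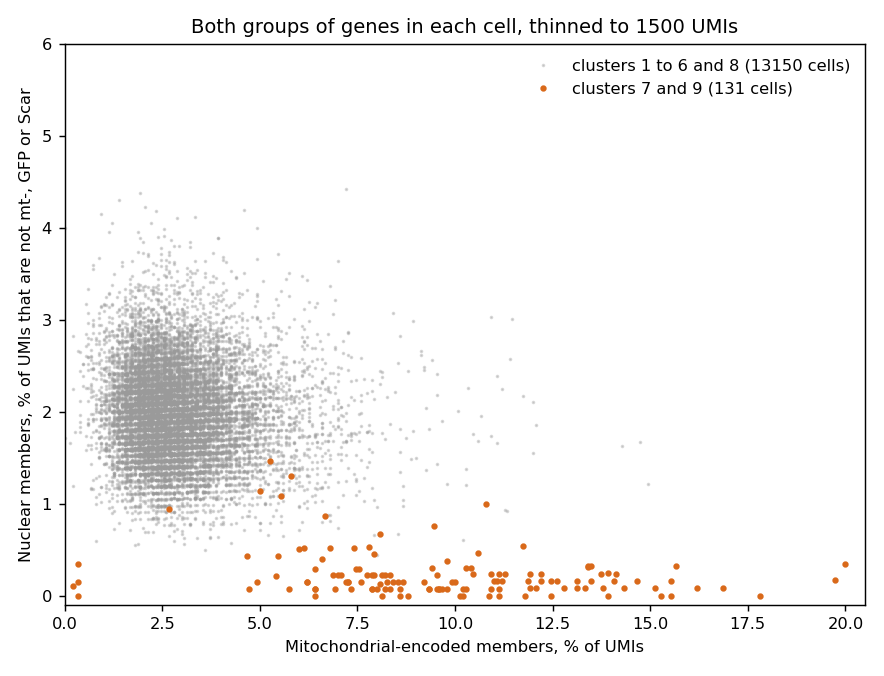
Each point is 1 of 13281 cells thinned to 1500 UMIs, placed by its mitochondrial-encoded share (horizontal, % of UMIs) and its nuclear share (vertical, % of UMIs that are not mt-, GFP or Scar). Cells of clusters 1 to 6 and 8 (grey, 13150 cells) form 1 cloud, and cells of clusters 7 and 9 (orange, 131 cells) lie mostly along the bottom over a wide mitochondrial range.

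When the thinned cells were put into 10 groups of equal size by mitochondrial share, the nuclear share was highest in the lowest group and lowest in the top group. In the lowest group (1.31% mitochondrial UMIs) nuclear genes took 2.06%, in the eighth (3.52%) 1.93%, and in the ninth (4.09%) 2.003%. In the top group (6.12%) they took 1.77%, and ribosomal protein genes took 11.6%, against 15.5% in the lowest group. Without clusters 7 and 9 the top group (5.61%) and the eighth (3.49%) both had 1.93% nuclear UMIs, against 2.06% in the lowest. Both shares also moved with depth: outside those clusters the mitochondrial share went from 3.09% in the shallowest of 10 groups to 2.65% in the deepest, and the nuclear share from 1.98% to 2.06%. The part of depth in the other patterns was not tested.

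The mitochondrial-encoded genes spread more over cells than the nuclear ones. The variance-to-mean ratio of summed UMIs, which is 1 for counting error alone, was 10.6 for the mitochondrial and 2.10 for the nuclear genes in thinned cells, and 8.04 and 1.88 without clusters 7 and 9. Since this ratio grows with the mean, the spread beyond counting error was also expressed as a coefficient of variation. It was 40.1% for mitochondrial, 17.7% for nuclear and 27.3% for ribosomal protein genes outside clusters 7 and 9. Taken singly, mt-Atp6 (3.60) and mt-Co1 (3.06) had the highest ratios, followed by mt-Co2 (2.43). Ndufa4l2 came next at 2.27, and its few UMIs lay in few cells. Ndufa4 (1.55) led the common nuclear genes, ahead of Cox8a (1.18), Cox5a (1.12) and Atp5g1 (1.10), and the median of the 2606 genes averaging 0.1 UMIs or more per thinned cell was 1.05.

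Clusters were built with all 94 genes, GFP and Scar held out of the features, so the levels of these genes did not serve as features. Their UMIs still counted in the total by which each cell was scaled. All other genes could serve as features. Of 9 clusters, 8 had at least 50 cells. Cluster 3 (2025 cells) is called cycling-like, since all 10 cycling markers were raised and Ccna2, Ube2c and Top2a led it. Cluster 4 (1943 cells) is called mesenchymal-like, with 7 of 12 markers raised and Grem1, Vim and Col1a1 among its leading genes. The other clusters stay unnamed and are known by their leading genes, which were Krt7 and Sorbs2 in cluster 1 (3440 cells), Wfdc18 and Ccl9 in cluster 2 (3384 cells), Ch25h and Ccl2 in cluster 5 (1826 cells), and Ltf and Lcn2 in cluster 6 (1497 cells). Cluster 7 (652 cells) was led by Zfpm2, Aff2 and Immp2l, and cluster 8 (141 cells) by Ly6c1 and Pate14. Cluster 9 held 17 cells and was not compared gene by gene.

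Outside clusters 7 and 9 the nuclear share differed little between clusters. It was lowest in cluster 2 at 1.90% (1.89 to 1.91%) and highest in the cycling-like cells at 2.11% (2.10 to 2.12%). The mitochondrial share ranged more widely, from 2.41% (2.40 to 2.42%) in the cycling-like cells to 3.59% (3.57 to 3.61%) in cluster 6. Mitochondrial UMIs per nuclear UMI were accordingly 1.20 in the cycling-like cells, 1.53 in the mesenchymal-like cells and 1.85 in cluster 6. Cells within a cluster still overlapped: the 5th to 95th percentiles of the mitochondrial share were 1.33 to 4.26% in the cycling-like cells and 1.73 to 6.60% in cluster 6. Median UMIs were 3615 and 2904 in these 2 clusters, and the part of depth was not tested.

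**Figure D3:**
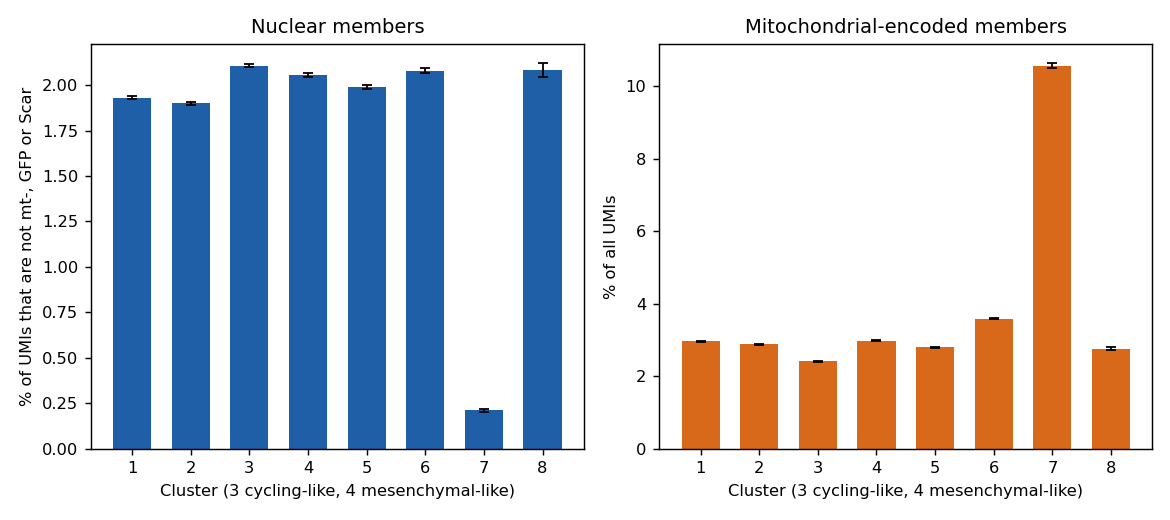
Nuclear genes as a share of UMIs that are not mt-, GFP or Scar (left) and mitochondrial-encoded genes as a share of all UMIs (right) in the 8 clusters of at least 50 cells; bars are shares of pooled UMIs and error bars exact 95% intervals for counting error. Cluster 7 has 0.211% nuclear and 10.6% mitochondrial UMIs, and the other clusters lie between 1.90 and 2.11% and between 2.41 and 3.59%.

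The balance of the complexes also stayed within narrow limits. In clusters 1 to 6 and 8, complex I took 35.0 to 36.9% of the nuclear UMIs, complex III 7.77 to 8.58%, complex IV 29.2 to 30.6% and complex V 25.4 to 26.5%, again with Ndufa4 in complex I. With it in complex IV, complex I took 30.1 to 33.95% and complex IV 32.7 to 35.3%. Within the mitochondrial UMIs of clusters 1 to 8, mt-Atp6 took 19.8 to 23.8%, mt-Co1 15.4 to 18.3%, mt-Co2 13.7 to 14.99% and mt-Cytb 11.1 to 12.5%. The shares of mt-Atp8 (0.207 to 0.503%) and mt-Nd6 (0.0974 to 0.186%) differed relatively more.

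Single genes were then compared between each cluster and all other kept cells. With 1 sample, a gene counted as past the fold at a ratio of 1.5 or more either way, with at least 20 CPM on the higher side and at least 20 UMIs. Of the 94 genes 86 could be compared, namely the 13 mitochondrial and 73 nuclear ones. Outside cluster 7, 18 of the 86 (16 nuclear and 2 mitochondrial) were past the fold in at least 1 cluster, and 68 in none. This is 20.9%, beside 62.9% of the 8066 genes tested in any of these 7 clusters. The genes behind these shares were not matched for level: the 73 nuclear genes had a median of 192 CPM over all kept cells, whereas the rule admits genes from 20 CPM. At a fold of 2, 2 of the 86 were past it.

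**Figure D4:**
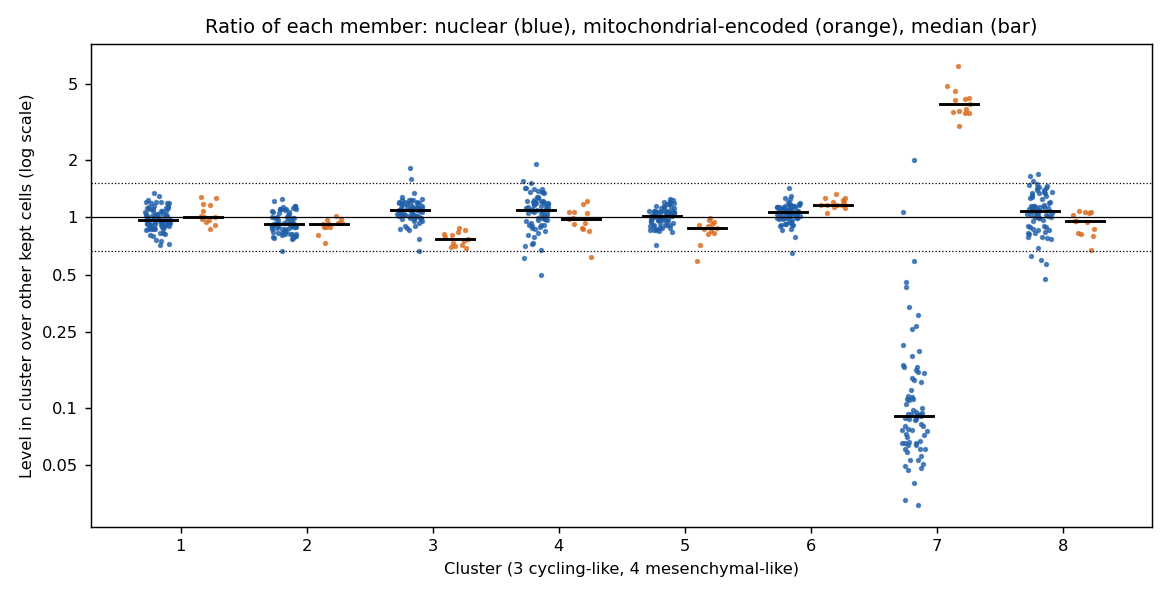
Ratio of each of 86 genes in a cluster to all other kept cells on a log axis, with 1 point per gene (nuclear blue, mitochondrial-encoded orange), bars at the medians and dotted lines at 1.5-fold either way. Most points lie within the dotted lines in clusters 1 to 6 and 8, whereas in cluster 7 the nuclear median is 0.091 and the mitochondrial median 3.91.

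Clusters 1, 2, 5 and 6 had no more than 1 of the 86 genes past the fold each. In cluster 1 none of the 86 genes was past the fold, beside 4.59% of the 6842 genes tested higher, 6.18% lower and 10.8% either way. In cluster 2 only Ndufa5, a matrix-arm subunit of complex I, was lower, at 34.2 against 51.3 CPM (ratio 0.666), beside 2.22% of all genes higher, 8.11% lower and 10.3% either way. That ratio sits at the edge of the rule and left it under 5 of 8 alternatives. In cluster 5 only mt-Nd6 was lower, at 27.3 against 46.3 CPM (ratio 0.589), beside 1.56% of all genes higher, 7.35% lower and 8.91% either way. All 13 mitochondrial genes had ratios under 1 there, beside a median of 0.951 over all genes tested. Without clusters 7 and 9 among the other cells 10 did, beside a median of 0.962. Then mt-Atp6, mt-Cytb and mt-Nd3 lay above 1 (at most 1.04). The 13 genes share 1 genome and are not separate observations.

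In the cycling-like cells 2 nuclear genes, Ndufa4 and Ndufa5, were higher and 1 lower, beside 9.69% of all genes higher, 10.4% lower and 20.1% either way. Ndufa4 was at 1266 CPM (1241 to 1293) against 796 CPM in all other cells, a ratio of 1.59. Over the clusters its level was 608 CPM in cluster 8, 651 in cluster 5, 710.3 in the mesenchymal-like cells, 771 in cluster 2, 978 in cluster 6 and 1016 in cluster 1. The cycling-like cells were thus the highest of the clusters listed. Ndufa5 was at 75.1 CPM (68.9 to 81.7) against 41.5 CPM (ratio 1.81), and no other cluster had it above 54.1 CPM. Ndufa6, an accessory subunit of complex I, was lower at 212 against 320 CPM (ratio 0.665), which left the rule under 4 of 8 alternatives. All 13 mitochondrial genes had ratios under 1, from 0.688 for mt-Co1 to 0.874 for mt-Nd2, and none was past the fold. Of the 73 nuclear genes, 57 had ratios of at least 1, with a median of 1.09 beside 0.951 over all genes tested. Without clusters 7 and 9 among the other cells all 13 mitochondrial genes were also under 1 (0.725 to 0.930). There 51 nuclear genes had ratios of at least 1, with a median of 1.07 beside 0.962 over all genes tested. Against all other kept cells, the count of nuclear genes at 1 or more was 52 in cluster 6, 48 in cluster 8 and 47 in the mesenchymal-like cells. It was 42 in cluster 5, 33 in cluster 1 and 21 in cluster 2. The share of all genes at 1 or more was not counted.

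In the mesenchymal-like cells 3 complex I genes were higher and 2 nuclear genes and 1 mitochondrial gene lower. This is 6 of 86, beside 37.4% of all genes either way (17.5% higher and 19.9% lower). Ndufa2, an accessory subunit of the NADH-oxidising module, was at 270.2 CPM (258 to 283) against 143 CPM (ratio 1.89). Its level in clusters 1, 2, 5 and 6 lay between 122 and 153 CPM, in the cycling-like cells it was 175 CPM and in the small cluster 8 it was 239 CPM. Ndufc1 was at 264 against 170.2 CPM (ratio 1.55) and Ndufa13, also known as GRIM-19, at 287 against 189 CPM (ratio 1.52). Uqcrfs1, the Rieske iron-sulphur protein of complex III, was at 66.9 CPM (60.7 to 73.6) against 134 CPM (ratio 0.4999). It lay between 129.7 and 164 CPM in clusters 1, 2, 3, 5, 6 and 8, so the mesenchymal-like cells stood below all of these. Atp5mpl, a small subunit of the ATP synthase, was at 91.5 against 149.8 CPM (ratio 0.611), and mt-Atp8 at 61.7 against 99.8 CPM (ratio 0.618). Without clusters 7 and 9 among the other cells, Ndufa13 (1.49) and mt-Atp8 (0.684) no longer passed the rule.

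Cluster 6, with the highest mitochondrial share, had all 13 mitochondrial genes at ratios from 1.05 to 1.33 (1.14 to 1.42 without clusters 7 and 9 among the other cells) and none past the fold. Its only gene past the fold was Ndufa9, a complex I subunit of low level, at 18.9 against 29.3 CPM (ratio 0.646), beside 6.98% of all genes higher, 10% lower and 17% either way. In cluster 8, whose 141 cells give the widest intervals, 3 nuclear genes were higher and 4 lower, beside 18.7% of all genes higher, 17.1% lower and 35.8% either way. Ndufs3, a core subunit of complex I, had a ratio of 1.67 from 75 UMIs. Cox5a was at 1193 CPM (1101 to 1291) against 775 CPM (ratio 1.54). Cox6b1 was at 228 CPM (189 to 273) against 479 CPM (ratio 0.475). Uqcr11, Uqcrc1 and Ndufa3 had ratios of 0.570, 0.598 and 0.628, from only 57, 26 and 26 UMIs in the cluster. Ndufa3 left the rule under 1 of 8 alternatives.

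Compared directly, the cycling-like cells had 5 genes higher and 4 lower than the mesenchymal-like cells. This is 9 of 86, beside 23.2% of all 7262 genes tested higher, 22.5% lower and 45.7% either way. Uqcrfs1 differed most, at 146 CPM (138 to 156) against 66.9 CPM (ratio 2.19). Ndufa4 was at 1266 against 710.3 CPM (1.78), Atp5mpl at 162 against 91.5 CPM (1.77), Ndufv1, the NADH-binding subunit, at 79.8 against 49.4 CPM (1.62), and Atp5g2 at 818 against 527 CPM (1.55). The lower genes were Ndufs1 (0.623), mt-Co3 (0.642), Ndufa13 (0.648) and Ndufa2 (0.649). mt-Co3 was at 2203 against 3431 CPM. Over all 73 nuclear genes the median ratio was 1.01, and over the 13 mitochondrial genes 0.849, beside 1.01 over all genes tested. With at least 1000 genes and 2000 UMIs per cell 2 genes were past the fold, and there the mesenchymal-like name went to another set of 245 cells.

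Genes that serve the same pathway were taken from lists chosen beside the 94 genes. These lists were not held out of the clustering features, so their genes may have helped to define the clusters. In the cycling-like cells 1 of 2 cytochrome genes was higher, Cycs (cytochrome c, ratio 1.75). There 4 of 75 mitochondrial ribosomal protein genes were higher, led by Mrpl49 (1.71), and none was lower. None of 4 succinate dehydrogenase (complex II) genes, 16 tricarboxylic acid cycle genes or 14 glycolysis genes passed the fold. In the mesenchymal-like cells 5 of 14 glycolysis genes were higher and none lower, led by Hk2 (2.29), a hexokinase, and Pfkp (1.92), a phosphofructokinase. Of 16 tricarboxylic acid cycle genes 3 were lower, near the 19.9% of all genes lower there, among them Idh3g (0.584) and Pdha1 (0.618). Of 7 carrier genes 2 were lower, namely the uncoupling protein gene Ucp2 (0.241) and the ADP/ATP carrier gene Slc25a5 (0.371). Of 7 biogenesis regulators 3 were lower: Esrra (0.489), Myc (0.509) and Yy1 (0.552). No complex II gene was past the fold in clusters 1 to 6. In the cycling-like cells these counts stand beside 9.69% of all genes higher and 10.4% lower. In the mesenchymal-like cells they stand beside 17.5% higher and 19.9% lower. The shares for the other clusters are given with each cluster.

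Cluster 7 set both groups of genes apart. Its 652 cells (4.37% of those kept) had 0.211% nuclear UMIs (0.200 to 0.221%), whereas no other cluster of at least 50 cells was under 1.90%. They had 10.6% mitochondrial UMIs (10.5 to 10.6%), and 57.8 mitochondrial UMIs per nuclear UMI. No nuclear UMI was found in 109 of them (16.7%). Of 73 nuclear genes 71 were lower and 1 higher, with a median ratio of 0.091, beside 33.2% of 7930 genes lower, 48.9% higher and 82.1% either way. All 13 mitochondrial genes were higher, from 2.98 for mt-Co3 to 6.19 for mt-Atp8. The 8, 11 and 17 nuclear genes compared in complexes III, IV and V were all lower, with medians of 0.087, 0.072 and 0.077. Examples are Cox8a at 61.7 CPM, against at least 717 CPM in each other cluster compared, and Cox4i1 at 60.4 CPM, against at least 821 CPM. Ndufs8, an iron-sulphur subunit of complex I, had 3 UMIs in the cluster, a level of 4.12 against 132 CPM. Only Ndufs1 was higher, at 50.8 against 25.6 CPM (ratio 1.98), and Ndufs4 was neither, at 123 against 116 CPM.

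Other genes also differed in this cluster, but they were not held out of the clustering features and may have helped to define it. Cytosolic ribosomal protein genes took 1.04% of its UMIs that were not mt-, GFP or Scar, against 10.3 to 15.7% in the other clusters compared, and 78 of 78 were lower, with a median ratio of 0.074. Malat1, a nuclear long noncoding RNA, took 12.0%, against 0.992 to 2.15%, and Neat1 was among the leading genes. Mitochondrial ribosomal protein genes, all encoded in the nucleus, were lower in 67 of 72 cases and higher in 1. The cluster's median depth was 1184.5 UMIs, the lowest of all 9 clusters. Among kept cells with under 1500 UMIs, the nuclear share was 0.189% in 530 cells of cluster 7 (median 1128 UMIs) and 1.96% in 1106 other cells outside cluster 9 (median 1288.5 UMIs). Among cells outside clusters 7 and 9 with 10 to 20% mitochondrial UMIs (42 cells) it was 1.64%, and in 8 cells of cluster 7 with at most 5% mitochondrial UMIs it was 0.424%. These sets were not matched beyond these limits, and the part of depth and of mitochondrial share in the result was not tested.

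The ratios in cluster 7 also went with gene length. Over all genes tested, the median ratio was 0.151 for genes up to 5 kb on the genome, 0.268 from 5 to 10 kb, 0.534 from 10 to 20 kb, 1.42 from 20 to 50 kb, 2.51 from 50 to 100 kb and 3.81 above 100 kb. The nuclear oxidative phosphorylation genes are short, with a median of 7.21 kb against 31.7 kb over all genes tested. By length class their median was 0.073 for 23 genes up to 5 kb, 0.082 for 29 genes from 5 to 10 kb, 0.097 for 13 genes from 10 to 20 kb and 0.432 for 7 genes from 20 to 50 kb. Ndufs4, the 1 gene above 100 kb, had 1.06, and Ndufs1, at 33.2 kb, had 1.98. Genes were not matched for level in this comparison, and the part of length in the result was not tested.

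**Figure D5:**
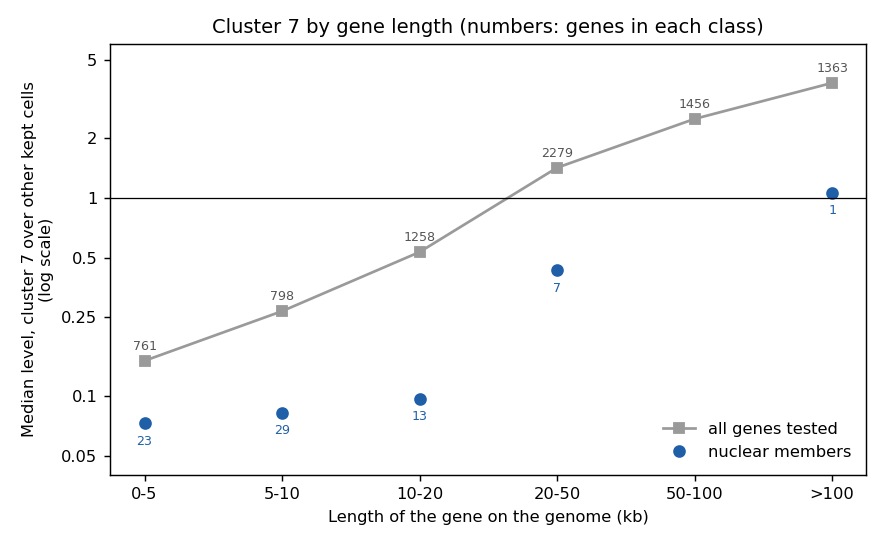
Median ratio of cluster 7 to all other kept cells (log axis) by length of the gene on the genome in kb, for all genes tested (grey squares) and the nuclear oxidative phosphorylation genes (blue circles), with the number of genes in each class printed beside the point. The median over all genes goes from 0.151 to 3.81 with length, and the nuclear genes lie below it in every class that holds any.

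Cluster 9 (17 cells) had 0.151% nuclear and 4.09% mitochondrial UMIs, with 5 cells lacking any nuclear UMI. Barcodes that the filter left out held similar values. The 292 barcodes above 20% mt- UMIs had 0.231% nuclear UMIs, and the 2046 with under 500 genes had 0.347% (with 13.6% mitochondrial UMIs). The 3172 under 1000 UMIs, the largest of these overlapping groups, had 0.417%. Their 95th percentile over single barcodes was 1.99%, so some lay in the range of other kept cells. Just inside the limit, 18 kept cells with 18 to 20% mt- UMIs had 0.236% nuclear UMIs, and just outside it 7 barcodes with 20 to 22% had 0.273%. Only 13 barcodes were left out for the mitochondrial limit alone, and the other barcodes above it also had too few genes or UMIs.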

How the data were processed

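The values used were deposited as UMI counts in whole numbers, and CellRanger 8.0.1 wrote them, per the file headers. The submitters' processing notes name Cell Ranger, Scanpy 1.8.2 and the build mm10. The deposited counts were not normalized, and the lowest barcode total was 500 UMIs. As neither header nor labels tie the matrix to 1 of the 3 libraries, it was treated as 1 pooled sample. Gene spans came from GENCODE M21 (GRCm38), which held 32235 of the 32287 feature IDs. UMIs under GFP and Scar were counted in depth and in shares of all UMIs.

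Counts were scaled to 10000 per cell, log-transformed and clustered with the Leiden method (scanpy 1.11.5, igraph 0.11.9) on 2000 variable genes, 30 components, 15 neighbours and resolution 0.6. Scrublet (expected rate 5%) called 1 cell. Clusters are numbered by size. A -like name needed 3 markers raised 1.5-fold and found in 5% of cells, 2 of them among the 10 leading genes found in 25%. Cluster levels of nuclear genes are per 1000000 UMIs that were not mt-, GFP or Scar. Those of mitochondrial genes, and all levels over the kept cells together, are per 1000000 UMIs of any kind. The fold rule, thinning and variance-to-mean ratio were tested on simulated data. Calculations used Python 3.11.15, numpy 2.4.6 and scipy 1.17.1.

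Named genes are all mitochondrial-encoded genes, the 3 highest and the lowest nuclear gene of each complex, the tissue paralogs, genes with 0 UMIs, the 5 with the highest variance-to-mean ratio, up to 3 per direction past the fold in a comparison, and up to 2 per direction of each other list described. Genes beyond this rule (Ndufs1 beside Ndufa4l2, Atp5a1, Cox7a2l, Ndufs4, Ndufs8, further genes past the fold between the named clusters, and Myc, Yy1 and Esrra together) were chosen after their values were seen. The values of 1 gene past the fold are not reported here. The genes and lists were chosen with earlier results of these data known. The NRF1 core was shortened from its full palindrome after a first promoter search had been seen.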

Additional observations from a re-analysis of the deposited data

Results flagged for a closer look

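Ndufb1-ps, which the suffix of its symbol kept out of the 94 genes, had 7920 UMIs (174 CPM, 170.5 to 178), above the limit that a count of 0 allows (3 UMIs). Its level lies near the median of the 73 common nuclear genes, 192 CPM. Whether these UMIs come from a transcribed gene at that locus or from reads shared with related sequences was not tested.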

How the results depend on the processing

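No paired analysis was possible because the matrix is 1 sample and no test was made between groups. The nuclear share of all UMIs (1.85%) was 1.88% with at least 1000 genes and 2000 UMIs per cell, 1.87% with a mitochondrial maximum of 10%, 1.88% without clusters 7 and 9 (chosen after seeing the data), 1.91% with GFP and Scar out of the total, and 1.80% as a mean over cells. Under the same settings the mitochondrial share (3.03%) was 2.87%, 2.92%, 2.89%, 3.12% and 3.29%, and it was 3.04% with no mitochondrial maximum and 3.01% once cells in the top 10% of doublet scores were dropped. Their ratio (1.64) was 1.53, 1.56 and 1.53 under the first 3 settings, 1.62 without high doublet scores and 4.53 as a mean over cells. Spearman's correlation between both shares (-0.0959) was -0.0685, -0.0834 and -0.0712 under those 3 settings, -0.0890 without high doublet scores, -0.171 and -0.0714 after thinning to 1000 and 2500 UMIs, -0.201 without thinning and -0.132 per UMI of any kind. The variance-to-mean ratio of the nuclear genes (2.10) was 1.87, 1.9996, 1.88, 2.14, 2.28 and 2.31 under these first 6 settings. That of the mitochondrial genes (10.6) was 7.93, 7.97, 8.04, 10.9, 14.5 and 10.5. The 85 genes past the fold in cluster 7 were 83 to 85 under every alternative that gave a value. With the stricter minimum no cluster of at least 50 cells matched it. The 18 genes past the fold in other clusters were 55 at a looser fold, 2 at a fold of 2 and 31 without high doublet scores. The 9 between cycling-like and mesenchymal-like cells were 27 and 1 at those folds and 2 with the stricter minimum. Without high doublet scores no cluster met the rule for the mesenchymal-like name, so that setting gave no value. Over 28 single-gene results, 182 of 206 values stayed past the fold, 24 did not and 0 reversed. The comparisons without clusters 7 and 9 and the count with Ndufa4 in complex IV, given beside their results, were also chosen after seeing the data. The cause of these shifts was not tested. Genes near 20 CPM in the smaller clusters are limited by their few UMIs.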

Other observations

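Other energy genes were past the fold in clusters 1, 2, 5 and 6. They were not held out of the clustering features, and Ucp2 was among the leading genes of cluster 2. Ucp2, an uncoupling protein of the inner membrane, was 2.39 times its level in other cells in cluster 2 and 0.516 times in cluster 1, where the ADP/ATP carrier gene Slc25a5 also lay at 0.641 times. These stand beside 2.22% of all genes higher in cluster 2 and 6.18% lower in cluster 1. In cluster 6, 2 of 6 mitochondrial oxygen-defence genes were higher and none lower, namely Prdx5, a peroxiredoxin (2.19), and Sod2, the matrix superoxide dismutase (1.53), beside 6.98% of all genes higher. In cluster 5, Tfam, which packages mitochondrial DNA, was lower (0.573), the only one of 8 genes of mitochondrial DNA and transcription past the fold, beside 7.35% of all genes lower.

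In cluster 8, 19 of 74 mitochondrial ribosomal protein genes were higher and 1 lower, led by Mrps18a (2.35) and Mrps18b (2.15), beside 18.7% of all genes higher. Of 8 complex I assembly factors 5 were higher, led by Ecsit (4.26), and 2 lower, beside 17.1% of all genes lower. This cluster holds 141 cells, and its counts per gene are small.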
